A study of Mus musculus with 10 samples.

Results

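The genes described here act in mitosis: the kinases and cyclins that drive it, the kinesins, kinetochore and spindle proteins that move chromosomes, and the cohesin ring with the shugoshins that guard it at centromeres. The set was a list of 47 genes, each represented by its brightest probe set among those with a single gene symbol, and all 47 were measured among 18193 genes on the arrays. The Meis1 shRNA arrays (n = 5) came from murine Mll-AF9 leukaemia cells, number 4166, infected with a lentivirus carrying a short hairpin RNA against Meis1, a homeodomain transcription factor. The control arrays (n = 5) came from the same cells infected with the empty lentiviral vector. Every sample was selected with puromycin, profiled at 48 hours, and grown in IMDM with 15% serum and 2 ng/ml interleukin 3. Each shRNA sample is paired by number with a control sample, per the labels. The model is 1 cell population and the labels describe 1 construct, so a hairpin's effect on Meis1 and any other effect of it cannot be told apart here. Separate cultures for the 5 samples of a group are not stated in the labels, so a p-value here measures how far these samples scatter, and part of that scatter may be technical.

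In a dividing cell, cyclin B with Cdk1 and the Polo and Aurora kinases start mitosis, and kinesins with spindle proteins build a bipolar spindle. Kinetochores attach chromosomes to microtubules, and the spindle checkpoint holds back the anaphase-promoting complex until all are attached. That complex then destroys securin, which frees separase to cut cohesin, while shugoshin with the phosphatase PP2A has shielded cohesin at centromeres until then. Transcripts of many of these genes peak in G2 and mitosis, through a promoter element called the cell cycle genes homology region that the MuvB complex binds by its subunit Lin54, often with nearby CCAAT boxes. Dividing leukaemia cells carry these transcripts in abundance.

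Promoter sequence was examined for these elements. The 47 genes were listed by their role in mitosis, so the shares below describe the list and not the change with the shRNA. RefSeq promoter windows of 300 bases, from 250 before to 50 after the start on GRCm38.p6, were held for 38 of the 47 genes, in 41 windows. The homology region was searched for as the letters TTTGAA and TTCGAA on both strands, and the CCAAT box as CCAAT on both strands. A TTTGAA match overlapped a CCAAT match in 1 member, Cdca8. TTTGAA or TTCGAA stood in 70.7% of the mitosis gene windows, against 41.5% of windows of 104 other mitosis genes, 25% of those of 30 genes of G1/S and DNA replication and 15.1% of windows of all genes on the array. Over all 32851 promoter windows in the table the share was 19.2%. CCAAT stood in 78% of the mitosis gene windows and in 37.4% of those of all genes on the array. The lists nearest in function lay between these, at 56.9% for the other mitosis genes and 59.4% for the G1/S and DNA replication genes. Of the 27 members with TTTGAA or TTCGAA, 25 had it within 50 bases of the start. Both elements lay in the 80 bases before the start in 7 members, and the 6 of these with the lowest adjusted p in the expression test are shown, 5′ to 3′ on the gene's strand, with TTTGAA and CCAAT in capitals on either strand, where a match on the other strand reads TTCAAA or ATTGG.
Prc1, chr7:80294396-80294475, plus strand: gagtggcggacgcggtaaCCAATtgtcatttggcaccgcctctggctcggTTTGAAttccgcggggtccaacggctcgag
Top2a, chr11:99024190-99024269, minus strand: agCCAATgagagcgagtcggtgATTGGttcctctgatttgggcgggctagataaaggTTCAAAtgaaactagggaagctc
Kif11, chr19:37376302-37376381, plus strand: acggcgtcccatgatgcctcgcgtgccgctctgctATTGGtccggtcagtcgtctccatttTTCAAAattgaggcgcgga
Cdc20, chr4:118437344-118437423, minus strand: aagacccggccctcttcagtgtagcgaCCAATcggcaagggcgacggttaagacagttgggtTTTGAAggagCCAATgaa
Ube2c, chr2:164769849-164769928, plus strand: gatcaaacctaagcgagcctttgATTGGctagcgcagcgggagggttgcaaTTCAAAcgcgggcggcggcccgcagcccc
Espl1, chr15:102296213-102296292, plus strand: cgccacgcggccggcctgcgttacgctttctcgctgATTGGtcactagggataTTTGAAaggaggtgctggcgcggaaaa

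In these 6 the homology letters lie between the CCAAT letters and the start, with a further CCAAT downstream of them in Cdc20. In Plk1 the letters TTTGAA lie at positions 31 to 36 of the transcript and in Sgo1 TTCGAA lies at 28 to 33, past the stretch shown. The median log2 change was -0.26 in the 27 members that had the letters TTTGAA or TTCGAA (range -1.79 to 0.05) and -0.27 in the 11 with a window but without them (range -0.63 to -0.06). The difference between these was not tested. A match is a run of letters and was not tested as a binding site.

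Meis1 itself checks the labels. Its probe set read 192.6, 220.7, 126.7, 142.4 and 140.2 in shRNA samples 1 to 5, against 395.9, 413.1, 297.1, 332.7 and 290.3 in their control partners, and the groups did not overlap. Intensities are the deposited values on a linear scale, and all log2 changes are shRNA minus control from a limma fit with the sample number as a block, with p-values adjusted by the Benjamini-Hochberg method over all 18193 genes. A mean log2 level of 4 or more over the 10 arrays was reached by 7 of the 9 myeloid markers, all but Csf1r and Fcgr3. The brightest, Mpo, Elane and Ptprc, had mean log2 levels of 13.25, 10.81 and 9.15 in the shRNA arrays and 13.40, 11.22 and 9.51 in the controls. Of 9 myeloid markers 2, Ptprc and Elane, passed as lower and 0 as higher, while 5 had estimates above 0 and the median was 0.18. The highest estimates, none past the threshold, were those of Itgam at 0.45, Spi1 at 0.33, Fcgr3 at 0.27 and Cebpa at 0.26 (adjusted p = 0.194, 0.128, 0.204 and 0.231), and these 4 were higher at an unadjusted p under 0.05 in the limma fit. Fcgr3 was dim, at mean log2 levels of 3.28 in shRNA arrays and 3.01 in controls. The log2 of the summed marker level, in which Mpo weighs most, was 13.37 to 14.0 in shRNA arrays and 13.57 to 14.2 in controls. Of 5 stromal and endothelial markers 1, Pecam1, passed as lower at -0.71 (adjusted p = 0.0369), with the log2 summed level at 5.11 to 5.71 in shRNA arrays and 5.11 to 6.05 in controls. Pecam1 was the only 1 of the 5 with a mean log2 level of 4 or more over the 10 arrays, and the other 4 did not pass. The part of either marker list in the results below was not tested. None of the measured markers of erythroid cells, megakaryocytes, T cells, B cells or mast cells had a mean log2 level of 4 or more over the 10 arrays.

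Estimates for the mitosis transcripts lay mostly a little below 0 with the Meis1 shRNA, and Sgo1 stood far below the rest. Of the 47 genes, 5 fell and 0 rose at an adjusted p under 0.05, and 42 did not pass. Those that fell were Sgo1, the guardian of centromeric cohesion, 3.47-fold lower, Prc1, the microtubule bundler of the spindle midzone, 1.79-fold lower, the kinetochore subunit Nuf2, 1.55-fold lower, the Polo kinase Plk1, 1.36-fold lower, and the spindle assembly factor Tpx2, also 1.36-fold lower. Over all genes 2.98% were called lower and 1.08% higher, 4.06% in either direction. At an unadjusted p under 0.05 the same limma fit had 28 members lower and 0 higher, where the background was 11.1% lower and 6.9% higher. The estimate was below 0 in 45 of the 47, against 49% of all genes, and the median change was -0.26, against 0.00 over all genes. In all 5 pairs 27 members were lower and 1 higher (Stag2), against 10.3% and 7.45% of all genes. The groups did not overlap, with every shRNA array under every control array, in 14 members, against 3.45% of all genes, and every shRNA array was above every control in 0 members, against 1.53%. Many genes of this background were dim. A mean log2 level of 4 or more was reached by 7719 of the 18193 genes and by all members but Cdc25b and Sgo2a. Among genes at that level 12% were called lower, and 15 members. The other shares were not computed at that level. Arrays of bulk cells cannot tell fewer cells in mitosis from less RNA of these genes per cell.

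**Figure D1:**
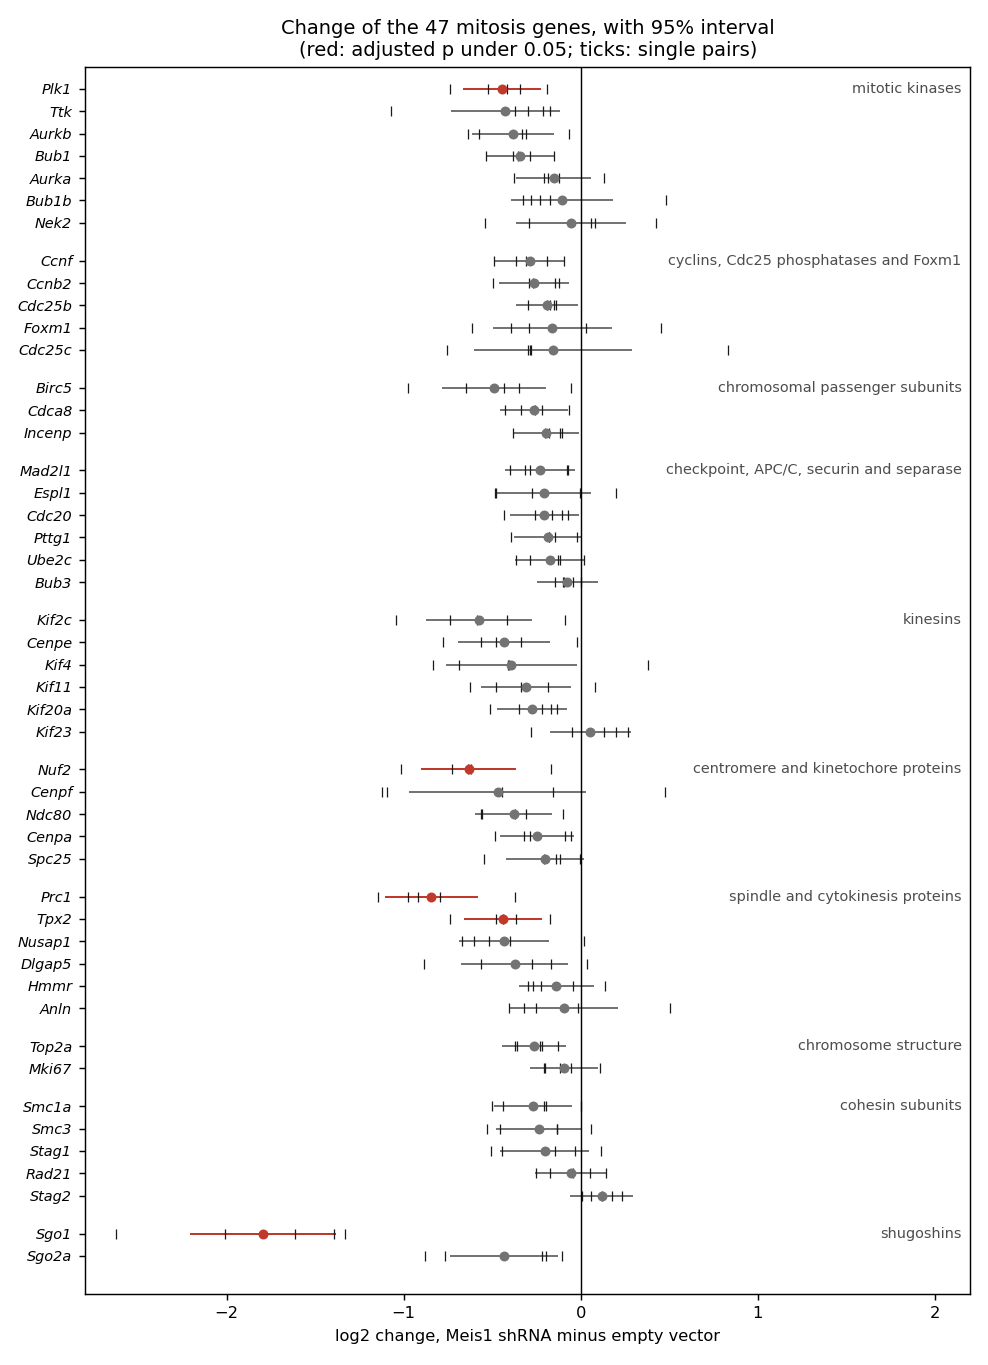
Log2 change of each of the 47 genes (Meis1 shRNA minus empty vector, horizontal axis), grouped by role, with the unadjusted 95% interval of the limma fit as a line and the 5 single pairs as ticks. Red marks an adjusted p under 0.05: Sgo1 at -1.79 stands apart on the left, and Kif23 and Stag2 are the members with estimates above 0.

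Of the 2 shugoshins, 1 fell. Sgo1, which recruits PP2A to centromeres and keeps sister chromatids joined until anaphase, read 95.2, 58.1, 59.0, 36.8 and 69.4 in shRNA samples 1 to 5, against 239.2, 234.1, 180.2, 227.2 and 182.3 in the controls. The highest shRNA array lay far under the lowest control array. Its mean was 63.7 ± 21.2 in shRNA arrays and 212.6 ± 28.9 in controls (SD, n = 5 each), and the fitted change was -1.79 in log2 (SE 0.18, limma's adjusted p = 0.00169). The other Sgo1 probe set, with mean log2 levels of 3.26 in shRNA and 4.82 in control arrays, changed by -1.56 (SE 0.12, adjusted p = 0.000705 over all probe sets). Both probe sets thus passed, each lower in 5 of 5 pairs. Sgo2a, a relative that acts chiefly in meiosis, was dim, at 13.3 ± 1.81 in shRNA arrays and 18.4 ± 5.10 in controls (SD, n = 5 each). Its change of -0.43 did not pass (SE 0.13, adjusted p = 0.125). The groups only just did not overlap, with the highest shRNA array at 14.8 and the lowest control at 14.86. The mean log2 level of Sgo2a was 3.73 in shRNA arrays and 4.16 in controls, near the low end where array changes are compressed. The sizes of the Sgo1 and Sgo2a changes are therefore not compared.

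**Figure D2:**
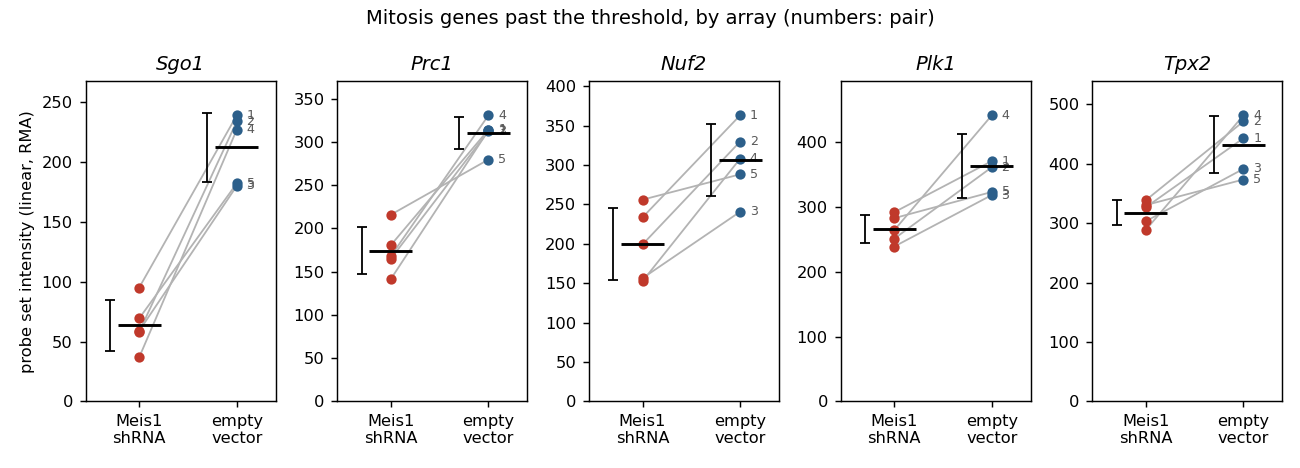
Probe set intensity (linear scale from 0) of the 5 genes past the threshold in each array, Meis1 shRNA on the left and empty vector on the right, with lines joining the pairs, bars at the means and whiskers of 1 SD. In Sgo1 the shRNA arrays reach 95.2 at most while the lowest control is at 180.2. Nuf2 is the gene of the 5 in which the groups overlap.

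None of the 5 subunits of the cohesin ring, which Sgo1 protects, passed, and their median was -0.20. Smc1a, a ring subunit, read 602.8, 530.0, 555.6, 546.3 and 622.5 in shRNA samples 1 to 5, against 689.8, 751.3, 642.2, 741.0 and 623.1 in controls, without overlap but by less than 1 unit between shRNA and control of sample 5. Its change of -0.27 (SE 0.10, adjusted p = 0.180) did not pass in the brightest probe set. A dimmer Smc1a probe set, at a mean log2 level of 5.86 in the control arrays, changed by -0.65 and passed (adjusted p = 0.0183 over all probe sets), so the probe sets of this gene disagree on the call. That fit over all 45037 probe sets adjusts for more tests, and in it the brightest probe sets of Plk1 and Tpx2 did not pass (adjusted p = 0.0607 and 0.0620), while those of Sgo1, Prc1 and Nuf2 did (0.00184, 0.00876 and 0.0322). The partner Smc3 was at -0.24 (adjusted p = 0.282), the kleisin Rad21 at -0.06 (adjusted p = 0.813) and the peripheral subunit Stag1 at -0.20 (adjusted p = 0.388). Stag2, the alternative peripheral subunit, had the highest estimate of the 47 at 0.12 (95% interval -0.06 to 0.30, adjusted p = 0.499).

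Of 12 genes for cohesin loading, release and acetylation, 2 fell and 0 rose, with a list median of 0.04. They were Esco2, the acetyltransferase that locks cohesin on replicated DNA, with a change of -0.63 (SE 0.13, adjusted p = 0.0383), and Cdca5, the gene for sororin, with -0.44 (SE 0.09, adjusted p = 0.0416). Of 9 PP2A subunits, 1 fell and 0 rose, with a median of 0.11. That gene was Ppp2r5e, which encodes the B56 epsilon subunit of the PP2A form that shugoshins bind. It read 190.1, 180.1, 200.3, 216.5 and 217.4 in shRNA samples 1 to 5, against 372.4, 382.0, 363.6, 396.1 and 293.4 in controls. The groups were well separated, with a change of -0.84 (SE 0.11, adjusted p = 0.00457). The other B56 subunits did not pass. Ppp2r5a, Ppp2r5b and Ppp2r5c were at 0.24, 0.29 and 0.20 (adjusted p = 0.133, 0.1005 and 0.208), and Ppp2r5d at -0.08 (adjusted p = 0.722). Ppp2r5b was dim, at a mean log2 level of 2.48 in controls. In all 5 pairs 5 of the 9 PP2A subunits were higher and 1 lower, against 7.45% and 10.3% of all genes.

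Among the spindle and cytokinesis proteins, 2 of 6 fell and 0 rose, with a median of -0.40. Prc1 bundles antiparallel microtubules where the cleavage furrow will form. It read 180.7, 141.5, 165.0, 168.0 and 215.9 in shRNA samples 1 to 5, against 314.1, 313.4, 312.5, 330.8 and 279.7 in controls, with no overlap. Its change was -0.84 (SE 0.12, adjusted p = 0.00676), and its other probe set, about as bright, changed by -0.70 (SE 0.10, adjusted p = 0.00774 over all probe sets). Tpx2, which activates Aurora A on spindle microtubules, read 326.8, 338.7, 303.3, 288.8 and 330.5 in shRNA samples, against 443.0, 471.2, 391.4, 481.5 and 373.5 in controls. These groups also stayed apart, at a change of -0.44 (SE 0.10, adjusted p = 0.0429). The mean of its 4 probe sets, of which 2 were dim, changed by -0.12 and did not pass (adjusted p = 0.492), and quantile normalization gave an adjusted p of 0.0564. Nusap1, which crosslinks spindle microtubules, was at -0.44 (adjusted p = 0.0717). Dlgap5 (HURP), which stabilises fibres near chromosomes, was at -0.37 (adjusted p = 0.180), the microtubule-binding Hmmr at -0.14 (adjusted p = 0.503) and anillin, Anln, at -0.10 (adjusted p = 0.780).

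The kinesins of the midzone did not pass. Kif4, a motor that works with Prc1 there, was at -0.39 but varied from -0.84 in pair 4 to 0.38 in pair 5 (SE 0.16, adjusted p = 0.246). Kif23, the motor subunit of centralspindlin, was at 0.05 (95% interval -0.17 to 0.28, adjusted p = 0.843). Its partner in that complex, Racgap1, changed by -0.86 and passed (SE 0.12, adjusted p = 0.00779). Racgap1 read 204.0, 183.8, 186.6, 195.2 and 265.2 in shRNA samples 1 to 5, against 375.3, 379.5, 336.2, 441.9 and 338.3 in controls. Racgap1 changed more than Kif23 in 5 of 5 pairs, by a mean of -0.92, with an exact sign-flip permutation p of 0.0625, the smallest possible, also after adjustment over this comparison and the same test of Sgo1 with Sgo2a, which is not read because Sgo2a was dim. The comparison of Racgap1 with Kif23 was chosen after the values were seen, so its p is not read as evidence of a difference.

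None of the 6 kinesins passed, with a median of -0.35 and 5 of 6 below 0. Kif2c (MCAK), which depolymerises wrongly attached microtubules, came nearest. It read 205.6, 276.0, 175.7, 165.9 and 206.6 in shRNA samples 1 to 5, against 308.6, 293.4, 292.9, 341.6 and 275.8 in controls. The shRNA array of sample 2 was level with the lowest control, and the change was -0.57 (SE 0.13, adjusted p = 0.0507). In the fit without the sample number as a block Kif2c passed (adjusted p = 0.0364). Cenpe, which carries chromosomes to the metaphase plate, was at -0.44 without overlap of the groups (adjusted p = 0.0753). The spindle-separating motor Kif11 was at -0.31 (adjusted p = 0.183) and Kif20a, a midzone motor, at -0.28 (adjusted p = 0.137).

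At the kinetochore, 1 of 5 members fell and 0 rose, with all 5 below 0 and a median of -0.38. Nuf2, a subunit of the Ndc80 complex that grips microtubule ends, read 233.4, 199.1, 156.3, 152.5 and 255.9 in shRNA samples 1 to 5, against 362.9, 329.6, 240.6, 307.9 and 288.1 in controls. The highest shRNA array lay above the lowest control array, yet each pair was lower, and the change was -0.63 (SE 0.12, adjusted p = 0.0239). Without the sample number as a block its adjusted p was 0.0594. Other subunits of the same complex were at -0.38 for Ndc80 (adjusted p = 0.0650) and -0.20 for Spc25 (adjusted p = 0.321). The centromeric histone Cenpa was at -0.25 (adjusted p = 0.192) and Cenpf, a large outer kinetochore protein, at -0.47 with pairs from -1.12 to 0.47 (adjusted p = 0.313). Of 26 other centromere and kinetochore genes, 6 fell, 0 rose and all 26 were below 0, with a median of -0.39. Those with the largest changes were Cenpn, a reader of the centromeric nucleosome, at -1.04 (SE 0.21, adjusted p = 0.0313), Ska3, which couples kinetochores to microtubules, at -0.79 (SE 0.10, adjusted p = 0.00543), and Dsn1, of the Mis12 complex, at -0.72 (SE 0.14, adjusted p = 0.0244). In Cenpn the groups overlapped through control 5, which read 41.0 while controls 1 to 4 read 80.8 to 98.5, and which lay under shRNA sample 1 at 45.1.

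Of the 7 mitotic kinases, 1 fell and 0 rose, with all 7 below 0 and a median of -0.34. Plk1, which acts from mitotic entry to cytokinesis, read 291.6, 250.8, 238.7, 263.8 and 282.5 in shRNA samples 1 to 5, against 370.5, 361.0, 318.1, 441.0 and 322.9 in controls. No shRNA array reached a control, and the change was -0.44 (SE 0.10, adjusted p = 0.0421). After quantile normalization its adjusted p was 0.0573. Ttk (Mps1), the apex kinase of the spindle checkpoint, had a change of the same order at -0.43 but a wider spread between pairs (SE 0.14, adjusted p = 0.137). Aurkb, the kinase of the chromosomal passenger complex, was at -0.38 (adjusted p = 0.0791) in its brightest probe set, while a second one was at -0.72 and passed (adjusted p = 0.00938 over all probe sets). That second probe set is of a class (x_at) in which some probes can match other transcripts. The checkpoint kinase Bub1 was at -0.34 (adjusted p = 0.0654), Aurora A, Aurka, at -0.15 (adjusted p = 0.447), Bub1b (BubR1) at -0.11 (adjusted p = 0.738) and the centrosomal kinase Nek2 at -0.06 (adjusted p = 0.891). Pair 2 of Bub1b was at 0.48 and its other pairs were below 0. A second Bub1b probe set, nearly as bright, was at -0.43 and lower in 5 of 5 pairs. It did not pass either (adjusted p = 0.129 over all probe sets).

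The other subunits of the passenger complex had estimates below 0 and did not pass. Birc5 (survivin), which docks it on chromatin, read 802.0, 579.7, 693.0, 582.2 and 849.0 in shRNA samples 1 to 5, against 1083, 909.7, 881.2, 1144 and 882.7 in controls. The groups did not overlap, and the change was -0.49 (SE 0.13, adjusted p = 0.0761). Cdca8 (borealin) was at -0.26 (adjusted p = 0.141) and the scaffold Incenp at -0.20 (adjusted p = 0.242).

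None of the cyclins, Cdc25 phosphatases and the factor Foxm1 passed, and their median was -0.19. Ccnf (cyclin F), a ubiquitin ligase subunit, had the lowest p of these 5. It read 185.3, 190.9, 204.9, 193.3 and 185.0 in shRNA samples, against 238.5, 236.5, 233.9, 271.1 and 197.8 in controls. The shRNA arrays lay close together, control 5 lay among them, and the change was -0.29 (SE 0.09, adjusted p = 0.117). The mitotic cyclin Ccnb2 was at -0.27 (adjusted p = 0.146). Cdc25b at -0.19 (adjusted p = 0.225) and Cdc25c at -0.16 (adjusted p = 0.749) remove the brake on Cdk1, and Cdc25b was dim, at 10.8 in shRNA arrays and 12.4 in controls. Foxm1, an activator of G2/M genes, was at -0.16 with pairs from -0.61 to 0.46 (adjusted p = 0.644).

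The checkpoint and anaphase genes ranged from -0.23 to -0.08, with all 6 below 0 and none past the threshold. Mad2l1 (Mad2), which inhibits Cdc20, read 1024, 1165, 848.7, 835.9 and 1018 in shRNA samples 1 to 5, against 1275, 1226, 1036, 1105 and 1073 in controls. The groups overlapped, and the change was -0.23 (SE 0.09, adjusted p = 0.199). Cdc20, the activator of the anaphase-promoting complex, was at -0.21 (adjusted p = 0.248), its E2 enzyme Ube2c at -0.18 (adjusted p = 0.339), securin, Pttg1, at -0.19 (adjusted p = 0.292) and separase, Espl1, at -0.21 (adjusted p = 0.412). The checkpoint protein Bub3 was at -0.08 (adjusted p = 0.671). Of the proteins that shape mitotic chromosomes, Top2a (topoisomerase II alpha) read 1764, 1675, 1733, 1725 and 1650 in shRNA samples, against 2055, 2151, 2035, 2236 and 1804 in controls. It did not overlap between groups and did not pass, at -0.26 (SE 0.08, adjusted p = 0.121). The proliferation marker Mki67 was at -0.09 (95% interval -0.28 to 0.10, adjusted p = 0.635).

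Beyond the 47 members, 118 other mitosis genes were measured, of which 22 fell and 1 rose, with 92 below 0 and a median of -0.22. Among 22 entry and exit regulators, 4 fell and 1 rose. Lin9, a MuvB core subunit, had a change of -0.94 (SE 0.14, adjusted p = 0.0105), Haspin, the histone kinase that recruits the passenger complex, -0.67 (SE 0.13, adjusted p = 0.0306) and the kinase Melk -0.59 (SE 0.10, adjusted p = 0.0141). The MuvB subunits Lin37 and Lin52, at 0.02 and 0.09, did not pass (adjusted p = 0.934 and 0.776). Each was higher in 4 of 5 pairs, and Lin52 was dim, at a mean log2 level of 3.42 in controls. The other two that passed, named after their values were seen, were Lin54, at -0.52 (SE 0.10, adjusted p = 0.0323), and Gtse1, a microtubule-associated protein of G2 that restrains p53, which rose by 0.58 (SE 0.10, adjusted p = 0.0163) and was higher in 5 of 5 pairs, although the groups overlapped.

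Of 8 condensin subunits 2 fell, Ncapg2 at -0.63 (SE 0.10, adjusted p = 0.0126) and Ncapd2 at -0.37 (SE 0.08, adjusted p = 0.0483). Of 8 other checkpoint proteins 2 fell, Zwilch at -0.50 and Spdl1 at -0.49, which bring dynein to kinetochores (adjusted p = 0.0349 and 0.0381). Of 21 other kinesins and spindle proteins 4 fell, among them Racgap1, the centrosomal Tacc3 at -0.50 (adjusted p = 0.0383) and Ckap2l at -0.43 (adjusted p = 0.0381). Of 12 subunits of the anaphase-promoting complex 1 fell, Cdc23 at -0.46 (adjusted p = 0.0386). None rose in these 4 lists. For comparison, 17 of 39 genes of G1/S and DNA replication fell and 0 rose, with all 39 below 0 and a median of -0.40. In pairs 1 to 5 the median change of the replication genes was -0.36, -0.37, -0.39, -0.65 and -0.22, and that of the 47 mitosis genes was -0.29, -0.31, -0.26, -0.45 and -0.10. The mitosis median was nearer 0 in each pair, a difference between lists that was not tested.

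The pairs agreed in direction and differed in size. Members below 0 numbered 43, 43, 40, 46 and 33 of 47 in pairs 1 to 5. Relative to each gene's mean over the 10 arrays, the median member stood at -0.15, -0.15, -0.13, -0.19 and -0.07 in shRNA samples 1 to 5, against 0.13, 0.17, 0.06, 0.29 and 0.01 in controls (log2). The shRNA arrays thus lay close together, and the control arrays spread more widely. The signal at the 3 prime end over that at the 5 prime end, taken on the Gapdh and actin controls and used to judge RNA integrity, differed between the groups in the opposite direction to the mitosis level. Its log2 value was 0.37, 0.33, 0.37, 0.39 and 0.39 in shRNA samples 1 to 5, against 0.26, 0.28, 0.28, 0.20 and 0.37 in controls. It was higher with the shRNA in 5 of 5 pairs, by a mean of 0.09 (exact two-sided sign-flip permutation p = 0.0625, the smallest possible). Control 4 had the lowest ratio and the highest mitosis level among controls, and control 5 the reverse, but the order did not hold across the other arrays throughout. Control 2 was above control 1 in both, and shRNA sample 5 had the highest mitosis level of the shRNA arrays with a ratio of 0.39, against 0.33 in shRNA sample 2. Between partners the ratio differed by 0.11, 0.06, 0.09, 0.19 and 0.01 in pairs 1 to 5 (shRNA minus control). The mitosis median changes of those pairs were -0.29, -0.31, -0.26, -0.45 and -0.10. Pair 4 was largest and pair 5 smallest in size in both. Among pairs 1 to 3 the order differed, as pair 2 had the smallest ratio difference of these and the largest median change in size. Any link between these was not tested.

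**Figure D3:**
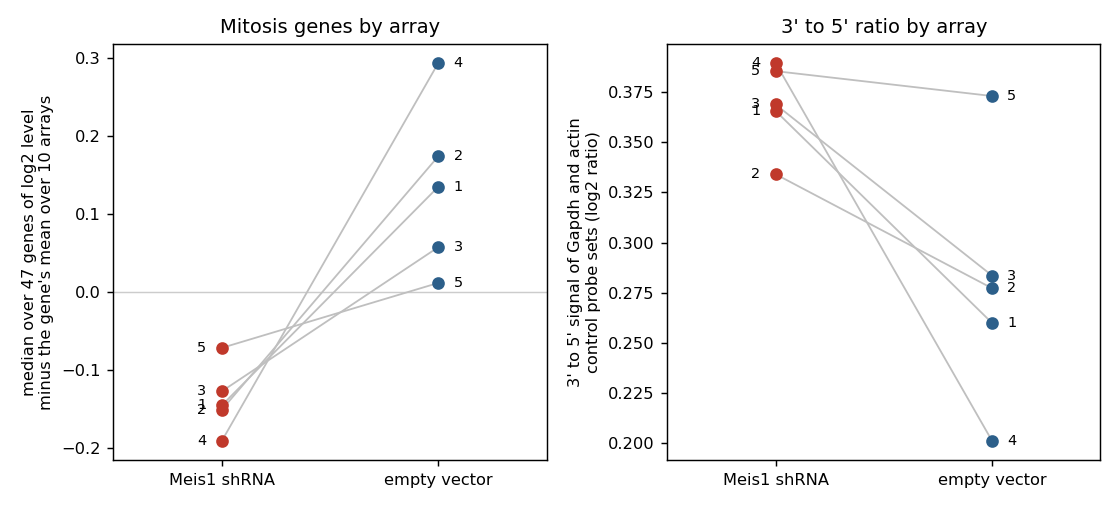
Left, the median over the 47 genes of the log2 level minus each gene's mean over 10 arrays; right, the log2 3 prime over 5 prime ratio on the Gapdh and actin controls. Points are arrays, numbered by pair, with Meis1 shRNA left of empty vector; control 4 is highest on the left (0.29) and lowest on the right (0.20).

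When the ratio was added to the paired fit, the estimate of each of the 47 members moved upward. The median change was then -0.08, with 37 of 47 below 0, and no member passed. Sgo1 was at -1.27 (adjusted p = 0.376) and Prc1 at -0.64 (adjusted p = 0.649), whereas Nuf2, Plk1 and Tpx2 were at -0.26, -0.21 and -0.18. Over all 18193 genes that fit called 2, both lower (0.011%). The ratio was higher with the shRNA in every pair, so its part in these changes and that of the shRNA cannot be told apart.

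**Figure D4:**
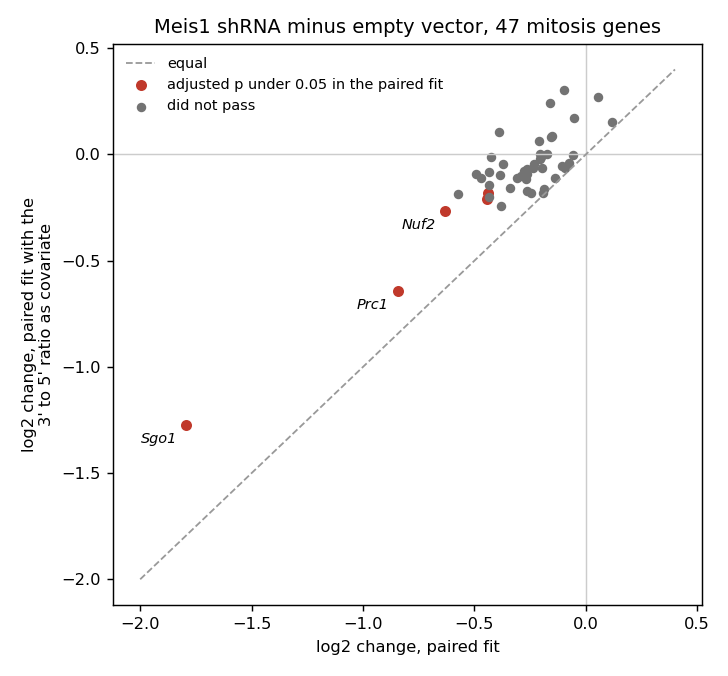
Log2 change (Meis1 shRNA minus empty vector) of the 47 genes in the paired fit (horizontal) and in the paired fit that adds the 3 prime over 5 prime ratio (vertical), with the dashed line marking equal values. All points lie above the line; Sgo1 and Prc1 remain at -1.27 and -0.64, and most others move near 0.

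The 47 genes had 113 probe sets, 13 genes having 1 and 34 genes several. Of the 66 probe sets that were not the brightest, 51 were below 0, 4 passed as lower and 0 as higher, against 1.96% and 0.522% of all 45037 probe sets. The 4 were those of Sgo1, Prc1, Aurkb and Smc1a already described. Of the 34 with a mean control log2 level of 4 or more, 30 were below 0.

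Read against the share of all genes called, the count of members that passed as lower stood above the background in most settings. It was 5 of 47 without the sample number as a block (2.23% of all genes lower, 0.522% higher) and 10 with it as a random block (3.11% and 0.978%). It was 3 after quantile normalization (2.1% and 1.7%), 7 after median centring (3.65% and 0.874%) and 8 on the mean of a gene's probe sets (3.6% and 1.1%). Among genes with a mean log2 level of 4 or more, which leaves out the members Cdc25b and Sgo2a, it was 15 (12% and 4.72%). A mean-variance trend with robust moderation gave 21 (5.74% and 2.49%), array weights gave 11 (3.51% and 1.48%) and log2(value + 8) gave 12 (4.49% and 1.95%). Without moderation 0 members passed (0.165% and 0.055%). The 16 genes that the trend and robust setting added were Aurkb, Bub1, Ccnb2, Incenp, Birc5, Cdca8, Mad2l1, Cdc20, Kif20a, Kif2c, Cenpe, Cenpa, Ndc80, Nusap1, Top2a and Smc1a. With pair 1, 2, 3 or 4 left out the count was 2, 3, 2 and 2 (lower in 1.39%, 1.25%, 1.56% and 1.09% of all genes, higher in 0.368%, 0.319%, 0.341% and 0.242%), and without pair 5 it was 10 (3.61% and 1.5%). No setting called a member higher.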

How the data were processed

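RNA from 5 Meis1 shRNA and 5 empty-vector samples was hybridised to Affymetrix mouse arrays. The authors deposited 1 intensity per probe set and array, computed with RMA per the submitters' processing notes (version and settings: not given in the sources used here). That the scale is linear is read from the values. They were log2-transformed with no pseudocount. RMA compresses large fold changes, and the number of arrays limits precision. Of 45101 probe sets, 64 controls were left out, and the brightest probe set with 1 platform symbol stood for each of 18193 genes. limma 3.58.1 in R 4.3.3 (lmFit, eBayes) tested shRNA against control, two-sided, with the sample number as a block and a Benjamini-Hochberg threshold of 0.05; the fit was tested on simulated data. The pairing is stated in the labels' treatment protocol. Deviations of same-numbered samples from their group means correlated at 0.600, 0.462, 0.339, 0.310 and 0.557 over 11215 bright probe sets, and control 2 correlated better with an shRNA sample of another number than with its own partner. Alternatives were the block, normalization, probe set summary, dim-gene filter, moderation, array weights, the 3 prime to 5 prime ratio, a pseudocount of 8 and each pair left out. The members, lists, named-gene rule and alternatives were chosen with earlier results of these data known. All members are named; per-array values are given for those past the threshold and, in role lists without one, for the lowest adjusted p; up to 3 other genes per list are named. Values of Ppp2r5e and Racgap1 by array were added after they were seen. Lin37, Lin52, Ppp2r5a, Ppp2r5b, Ppp2r5c and Ppp2r5d were also named after their values were seen. Promoter sequences are from RefSeq, GRCm38.p6.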

Additional observations from a re-analysis of the deposited data

Results flagged for a closer look

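In 4 of the 94 sets of 5 arrays (each member in each group), 1 array stood far from the other 4. Chance gives about 1 in 20, so the count is no more than chance gives. Bub1b read 336.4 in shRNA sample 2, while the other shRNA arrays read 197.6 to 220.2. The other 3 were all in control 4. Kif23 read 314.3 there and 265.1 to 276.1 in the other controls, Stag2 read 812.0 and 712.9 to 736.4 in the other controls, and Sgo2a read 27.3 (27.25 before rounding) and 14.9 to 17.6 in the other controls. Control 4 also had the lowest 3 prime to 5 prime ratio of the 10 arrays (0.20), and any link was not tested.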

How the results depend on the processing

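The median change of the 47 genes was below 0 in all 16 alternatives, from -0.31 (without pair 5) to -0.08 (-0.0756, with the 3 prime to 5 prime ratio as covariate), and no alternative called a member higher. Sgo1 and Prc1 passed in 14 of 16; the exceptions were the covariate and the fit without moderation (adjusted p = 0.0962 and 0.108). With the pair left out in turn, Sgo1 had adjusted p of 0.00282 to 0.0144 and Prc1 of 0.00264 to 0.0427, whereas Plk1, Nuf2 and Tpx2 did not pass without pair 1, 2, 3 or 4 (highest 0.152, 0.0937 and 0.153). The count of members lower was 5, and it was 5 with no replicate block (Kif2c in place of Nuf2), 10 with a random replicate block, 3 after quantile normalization, 8 with the mean of probe sets, 15 among genes with a mean log2 level of 4 or more, 21 with trend and robust eBayes, 11 with array weights, 12 with log2(value + 8), 0 without moderation and 0 with the covariate. It ranged from 2 to 10 over pairs left out: 2, 3, 2, 2 and 10 without pairs 1 to 5. Other mitosis genes lower numbered 22, and 11 after quantile normalization, 36 above the dim filter, 40 with trend and robust eBayes, 0 without moderation, 0 with the covariate and 5 to 27 over pairs left out (7, 6, 10 and 5 without pairs 1 to 4). Those higher numbered 1, and 2 above the dim filter, 4 with trend and robust eBayes, 3 with log2(value + 8), 0 without moderation, 0 with the covariate and 0 to 1 over pairs left out. All genes called numbered 739, and 1290 above the dim filter, 1497 with trend and robust eBayes, 1170 with log2(value + 8), 40 without moderation, 2 with the covariate and 243 to 929 over pairs left out (320, 286, 346 and 243 without pairs 1 to 4). The mean difference of the 3 prime to 5 prime ratio was 0.07 to 0.11 with a pair left out. Filters and fewer pairs change the number of genes or samples tested; the cause of the other shifts was not tested.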
